A study of Homo sapiens with 6 samples.

Results

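The adrenergic core regulatory transcription factors examined here are PHOX2A, HAND2, GATA3, GATA2, ISL1, TBX2, TFAP2B and KLF7. They were taken by gene symbol, 8 genes in all, and looked for in the lists of N-Myc-bound and JMJD6-bound promoters, typical enhancers and super-enhancers from CHP-134 cells. Of the 8 genes, 7 were named in at least 1 list, and TFAP2B was not listed. The 7 genes were named for 17 of the 9925 N-Myc-bound regions, and those regions held 22 of the 10172 N-Myc peaks. No JMJD6 list named any of the 8 genes.

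CHP-134 is a human neuroblastoma cell line, labelled as a peripheral nervous system tumour cell. The study describes this line as MYCN-amplified, with gain of the chromosomal region that holds the JMJD6 gene. Chromatin immunoprecipitation sequencing (ChIP-Seq) was performed in this line with an N-Myc antibody in 3 samples and a JMJD6 antibody in 3 samples, cross-linked with formaldehyde alone and with disuccinimidyl glutarate followed by formaldehyde, respectively. N-Myc is a basic helix-loop-helix transcription factor that binds E-boxes, and JMJD6 is a jumonji domain protein. The lists hold the positions of peaks common to all 3 samples of an antibody, with no column per sample, peak height or read count. A value per sample, a spread between samples and a test across samples could therefore not be given, the depth behind each peak is unknown, and every value below is a description of the merged lists. The difference between antibodies and the difference between cross-linking protocols cannot be told apart. The lists hold no RNA levels, so the expression of the 8 genes and of markers of the cell type was not examined.

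Neuroblastoma arises from the sympathoadrenal lineage of the neural crest, and its adrenergic state is held by a set of transcription factors that bind the enhancers of each other's genes and of their own. Such a set is called a core regulatory circuitry, and its genes are typically marked by super-enhancers, which are long clusters of enhancers with dense acetylation of histone H3 at lysine 27. The 8 genes cover several families of DNA-binding protein: homeodomain (PHOX2A, ISL1), basic helix-loop-helix (HAND2), GATA zinc finger (GATA2, GATA3), T-box (TBX2), AP-2 (TFAP2B) and Krüppel-like zinc finger (KLF7).

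The sequences below carry the canonical E-box CACGTG, the preferred site of N-Myc, and are shown because they are the N-Myc peaks of these genes with that motif. Each is the GRCh37 reference sequence of 120 bp around the motif, plus strand, 5′ to 3′. Distances in kb are from the peak midpoint to the start site of the named gene, with negative values upstream. Capitals mark CACGTG.
HAND2 peak at 7.33 kb, chr4:174444174-174444293: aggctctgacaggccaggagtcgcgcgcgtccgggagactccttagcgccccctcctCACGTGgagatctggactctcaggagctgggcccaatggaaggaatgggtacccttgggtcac
HAND2 peak at -479 kb, chr4:174930256-174930375: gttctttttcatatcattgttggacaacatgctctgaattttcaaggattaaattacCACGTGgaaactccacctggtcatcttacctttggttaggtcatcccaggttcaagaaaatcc
HAND2 peak at -663 kb, chr4:175114173-175114292: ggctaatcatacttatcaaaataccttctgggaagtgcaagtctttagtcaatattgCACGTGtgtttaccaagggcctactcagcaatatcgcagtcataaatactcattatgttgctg
GATA3 peak at 120 kb, chr10:8216748-8216867: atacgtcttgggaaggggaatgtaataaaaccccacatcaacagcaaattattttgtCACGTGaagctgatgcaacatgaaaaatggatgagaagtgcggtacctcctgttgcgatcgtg
GATA3 peak at 278 kb, chr10:8374079-8374198: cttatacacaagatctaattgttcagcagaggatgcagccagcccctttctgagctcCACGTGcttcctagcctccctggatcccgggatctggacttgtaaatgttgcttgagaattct
GATA2 peak at 0.605 kb, chr3:128206053-128206172: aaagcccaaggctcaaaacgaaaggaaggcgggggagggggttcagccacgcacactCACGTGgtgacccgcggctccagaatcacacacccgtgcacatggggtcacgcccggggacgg
TBX2 peak at -191 kb, chr17:59285878-59285997: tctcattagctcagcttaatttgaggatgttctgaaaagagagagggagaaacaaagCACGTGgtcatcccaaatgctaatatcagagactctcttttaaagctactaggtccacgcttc

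PHOX2A, ISL1 and KLF7 had no CACGTG in any of their N-Myc peaks. For these genes the 120 bp at the centre of the peak nearest to the start site is shown in the same way. Capitals mark CATCTG on either strand (read as CAGATG on the other), the E-box variant associated with HAND proteins. The ISL1 window held no match to it.
PHOX2A peak at -115 kb, chr11:72070137-72070256: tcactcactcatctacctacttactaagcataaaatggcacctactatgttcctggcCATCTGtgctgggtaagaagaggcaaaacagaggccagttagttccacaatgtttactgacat
ISL1 peak at 615 kb, chr5:51293895-51294014: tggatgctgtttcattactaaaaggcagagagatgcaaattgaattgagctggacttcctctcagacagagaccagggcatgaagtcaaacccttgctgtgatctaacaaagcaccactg
KLF7 peak at 41.7 kb, chr2:207988934-207989053: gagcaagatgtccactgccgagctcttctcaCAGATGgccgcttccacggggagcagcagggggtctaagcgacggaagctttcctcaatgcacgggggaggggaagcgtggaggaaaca

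A promoter, meaning the sequence within 1 kb of a RefSeq start, was listed as N-Myc-bound for 1 of the 8 genes, GATA2. Over 20136 protein-coding genes the share was 17.0%. Typical enhancers were listed for 5 of the 8 genes (62.5%; PHOX2A, HAND2, GATA3, ISL1 and TBX2), against 30.4% of protein-coding genes. Super-enhancers were listed for 3 of the 8 (37.5%; HAND2, GATA3 and KLF7), against 1.27%. In any class, 7 of the 8 were listed (87.5%), against 35.6%. Enhancers were assigned by the authors to the nearest genes on either side within 1000 kb, so a gene with distant neighbours can be assigned more of them. All 8 genes had intervals of over 200 kb between the neighbouring start sites, capped at 1000 kb on each side. They ran from 211 kb for PHOX2A to 1717 kb for ISL1. Of the 6961 protein-coding genes with an interval of at least 200 kb, a comparison chosen after the data were seen, 15.1% were listed for a promoter, 39.2% for a typical enhancer, 2.37% for a super-enhancer and 42.9% for any class. That set was not matched to the 8 genes in interval length. No test was made on these 8 genes, which were chosen by name.

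**Figure D1:**
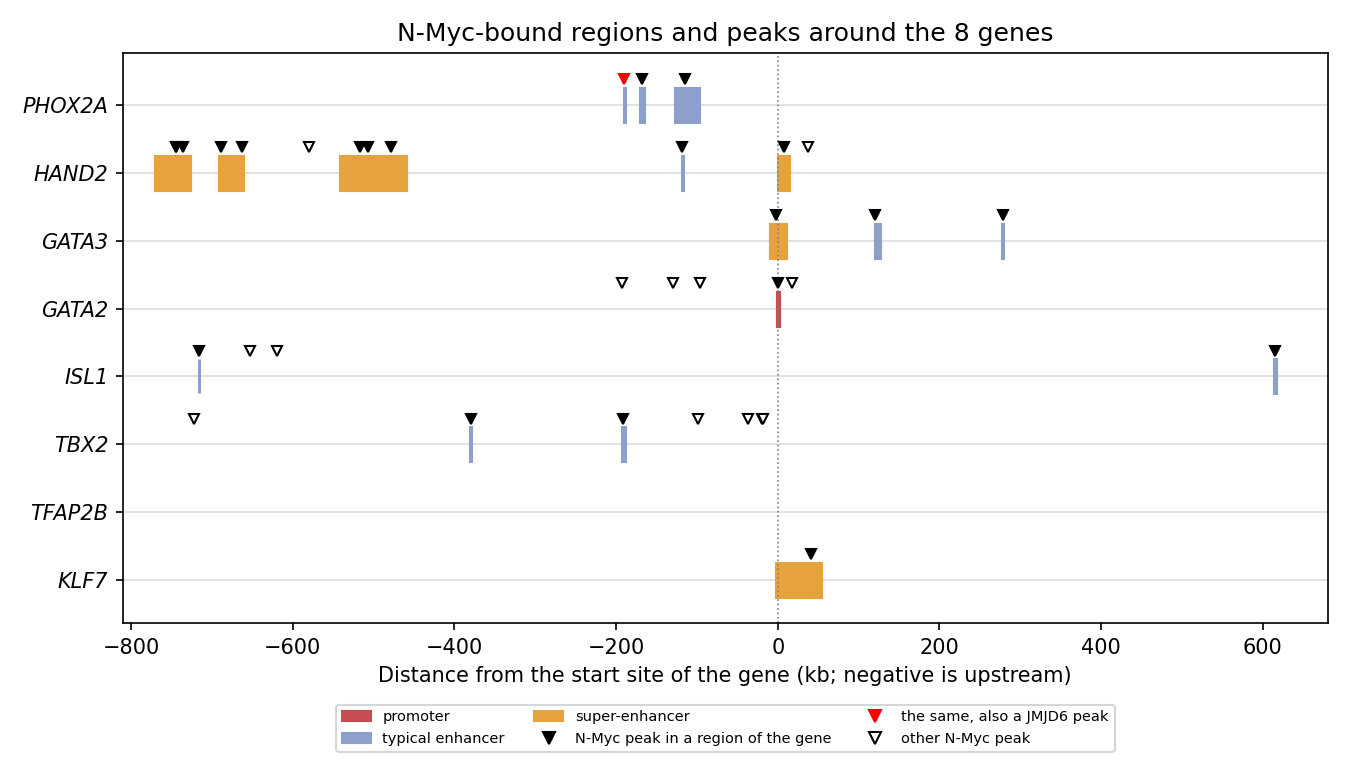
N-Myc-bound regions named for each of the 8 genes (bars) and N-Myc peaks (triangles), by distance from the start site in kb, with negative values upstream; bars of short regions are widened by their outline. Filled triangles are the 22 peaks in the regions of the gene, the red one also being a JMJD6 peak, and open triangles are other N-Myc peaks between the neighbouring start sites. Most regions lie far from the start site, and the TFAP2B row is empty.

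HAND2 encodes a basic helix-loop-helix factor that is needed for the noradrenergic differentiation of sympathetic neurons. It had 5 regions, more than any other of the 8 genes, of which 4 were super-enhancers and 1 was a typical enhancer. The super-enhancer nearest to the gene (chr4:174436923-174451480, 14.6 kb) covered the HAND2 start site and held 1 N-Myc peak, 932 bp wide, which lay 7.33 kb downstream of the start in intergenic sequence. That peak was wider than or as wide as 95.6% of all N-Myc peaks, and its E-box is the first sequence shown above.

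The other HAND2 super-enhancers lay upstream, in and beside the interval that separates HAND2 from CEP44 and FBXO8. The longest (chr4:174911169-174993040, 81.9 kb) was centred 501 kb from the HAND2 start, ranked 4 in length among the 162 super-enhancers listed for N-Myc and held 3 N-Myc peaks. The next (chr4:175113083-175142944, 29.9 kb) was centred at 677 kb and held 2 peaks in introns of the non-coding gene LINC02268. The farthest (chr4:175179016-175221627, 42.6 kb) was centred at 749 kb and held 3 peaks in introns of FBXO8. All 3 were assigned to both HAND2 and CEP44. In each of the 3, the nearest protein-coding start was that of FBXO8, an F-box protein gene, at 232 kb, 56.2 kb and 4.47 kb respectively, and the farthest of them contained the start sites of CEP44 and FBXO8. The assignment of these regions to HAND2 therefore rests on the distance rule and was not measured by a contact assay.

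Together the 4 HAND2 super-enhancers spanned 169 kb and held 9 N-Myc peaks. These totals depend on the assignment. Of its 5 regions, HAND2 kept 2 with enhancers given to the nearest protein-coding start. It kept 1 with regions only up to 100 kb. Among the 265 symbols named in the N-Myc super-enhancer list, 236 had 1 super-enhancer, 19 had 2, 8 had 3, and 2 had 4, namely HAND2 and MAB21L1. The single typical enhancer of HAND2 (chr4:174568338-174569691) lay 118 kb upstream, in an intron of the antisense gene HAND2-AS1, and its peak was 581 bp wide.

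GATA2 and GATA3 encode zinc finger factors that act in the development and survival of sympathetic neurons, and they were listed in different classes. The GATA2 promoter (chr3:128205764-128207764) was the only promoter of the 8 genes listed. Its N-Myc peak, 291 bp wide, lay in an intron of GATA2, 0.605 kb downstream of the listed start. It was among the narrower peaks, with 12.7% of all N-Myc peaks as wide or narrower. No enhancer or super-enhancer was named for GATA2.

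GATA3 had 1 super-enhancer and 2 typical enhancers. The super-enhancer (chr10:8086896-8106474, 19.6 kb) was centred 29 bp from the GATA3 start and held 1 N-Myc peak of 786 bp. The midpoint of this peak was 2.36 kb upstream of the RefSeq start, outside the 1 kb that defines a promoter, and the peak lay over an exon and an alternative annotated start of the antisense gene GATA3-AS1. The promoter of GATA3-AS1 was listed as N-Myc-bound in 2 entries, whereas that of GATA3 was not. Measured to the nearest of the 5 annotated GATA3 starts, the edge of the peak was 0.881 kb away. The typical enhancers lay 123 kb and 278 kb downstream (chr10:8216401-8223577 and chr10:8374130-8374872) with no nearer protein-coding start than that of GATA3. Each held 1 intergenic peak with a CACGTG, 299 bp and 854 bp wide.

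KLF7, a Krüppel-like factor of neuronal outgrowth, had 1 super-enhancer (chr2:207977277-208033096, 55.8 kb), which ranked 22 in length and covered the RefSeq start. It held a single N-Myc peak of 591 bp in a coding exon of KLF7, 41.7 kb downstream of that start. An alternative KLF7 start, 1 of 14 in the annotation, lay inside this peak. The KLF7 super-enhancer thus held 1.79 peaks per 100 kb, against a median of 6.74 over the 162 super-enhancers. The values for HAND2 were 6.87, 3.66, 6.70 and 7.04 from the nearest to the farthest, and for GATA3 the value was 5.11.

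**Figure D2:**
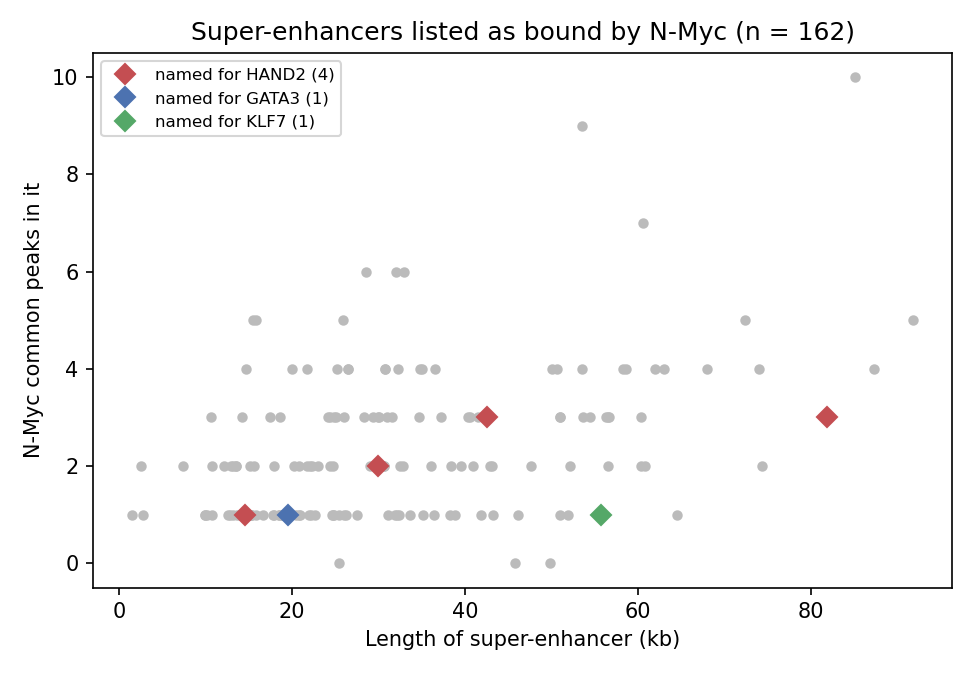
Length in kb (x axis) and number of N-Myc peaks (y axis) of the 162 super-enhancers listed for N-Myc, with those named for HAND2, GATA3 and KLF7 as coloured diamonds. The 6 regions range from 14.6 to 81.9 kb and from 1 to 3 peaks, within the range of the other super-enhancers.

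Over the 6 super-enhancers of the 3 genes, 244 kb in all, there were 11 N-Myc peaks. In the whole list, the median super-enhancer was 28.4 kb long and held 2 peaks, and 63 of the 162 (38.9%) held 3 or more. The regions of these genes were thus neither the longest nor the most densely bound. A single peak was held by 3 of the 6, beside 58 of the 162 in the whole list.

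PHOX2A encodes a homeodomain factor of noradrenergic neurons. It was named for 3 typical enhancers, all upstream, at 112, 168 and 190 kb (chr11:72052593-72082134, chr11:72121228-72125162 and chr11:72144748-72145593). Each held 1 N-Myc peak, of 357, 401 and 377 bp. All 3 regions were also assigned to CLPB, a mitochondrial chaperone gene, and the nearest protein-coding start was that of CLPB in each. The first and the last contained an annotated CLPB start, and the N-Myc peaks in them lay over an exon and over an untranslated region of CLPB transcripts.

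ISL1, a LIM-homeodomain factor of sympathetic and motor neurons, was named for 2 typical enhancers. One (chr5:51293029-51294877) lay 615 kb downstream in intergenic sequence with ISL1 as the nearest protein-coding gene, and its peak was 514 bp wide. The other (chr5:49963126-49963327, 202 bp) lay 716 kb upstream, 0.164 kb from the start of PARP8, whose promoter was also listed as N-Myc-bound. Its peak of 481 bp covered an annotated PARP8 start.

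TBX2, a T-box factor that mostly represses transcription, was named for 2 typical enhancers inside introns of its upstream neighbour BCAS3, at 380 kb (chr17:59096759-59098296) and 191 kb (chr17:59284504-59287978). Their peaks were 415 and 419 bp wide, close to the median of 418 bp over all N-Myc peaks. A BCAS3 start was the nearest protein-coding start for both, at 3.20 and 36.3 kb. TFAP2B, the gene of the AP-2 factor of neural crest and sympathetic cells, had no listed region and no N-Myc peak in the 1105 kb interval around its start.

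All 10 typical enhancers of the 8 genes were over 100 kb from the gene they were named for, with a range of 112 to 716 kb. In the whole N-Myc typical enhancer list the median distance to an assigned gene was 46.0 kb, and 34.4% of assignments were over 100 kb. The nearest protein-coding start was that of the named gene for 4 of the 10 (the GATA3 pair, the HAND2 enhancer and the downstream ISL1 enhancer) and that of another gene for 6. The same share over the whole list is not given here, and a region named for genes on both sides cannot be nearest to both. Counting only regions within 100 kb left 4 of the 8 genes listed, namely HAND2, GATA3, GATA2 and KLF7, against 29.2% of protein-coding genes. Assigning enhancers to the nearest protein-coding start left 5, with ISL1 added, against 25.7%. PHOX2A and TBX2 had no region under either rule.

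Distances from the start sites to the nearest N-Myc peak were then measured without regard to the region lists, taking the nearest annotated start of each gene. KLF7 had a peak over a start (0 kb), GATA2 at 0.454 kb, GATA3 at 0.881 kb and HAND2 at 5.55 kb. TBX2 followed at 17.9 kb, PHOX2A at 113 kb, TFAP2B at 119 kb and ISL1 at 612 kb. For 3 of the 8 genes the peak was within 1 kb, against 20.8% of protein-coding genes, and for 5 it was within 100 kb, against 65.7%. Each of the 3 had only 1 annotated start that near, out of 14 for KLF7, 10 for GATA2 and 5 for GATA3. The count within 1 kb of the 5′ end of the gene record is not given here. The median distance was 11.7 kb, against 44.5 kb over all protein-coding genes. It was 33.6 kb, against 58.8 kb, from the 5′ end of the gene record, and 24.1 kb, against 115 kb, with only peaks wider than the list median. At the far end, 94.6% of protein-coding genes had an N-Myc peak as near as or nearer than ISL1 did.

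**Figure D3:**
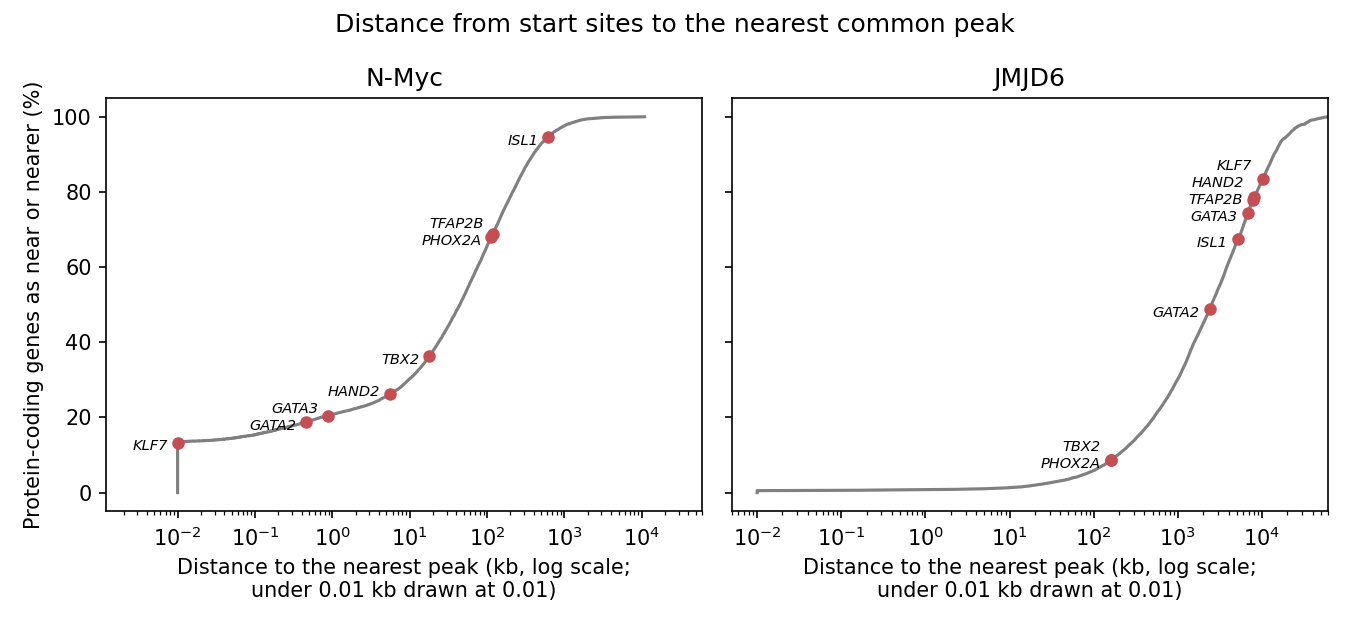
Share of protein-coding genes (y axis, percent) with a peak at the given distance in kb or nearer (x axis, log scale), for N-Myc on the left and JMJD6 on the right, with the 8 genes as points. For N-Myc the genes run from KLF7 at 0 kb to ISL1 at 612 kb, and for JMJD6 none is nearer than 160 kb.

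Some N-Myc peaks near these genes were in no listed region. The intervals between the neighbouring protein-coding starts, capped at 1000 kb on each side, held 35 N-Myc peaks over the 8 genes, with 12 for HAND2, 7 for TBX2, 5 for GATA2, 4 for ISL1, 3 each for PHOX2A and GATA3, 1 for KLF7 and 0 for TFAP2B. Per 100 kb of interval this was 2.34 peaks for GATA2, 1.42 for PHOX2A, 1.37 for HAND2 and 0.903 for TBX2, against 0.328 over the reference chromosomes. It was 0.243 for GATA3, 0.233 for ISL1, 0.169 for KLF7 and 0 for TFAP2B. The intervals reach the neighbouring starts, so they include peaks over starts of CLPB, RPN1, BCAS3 and PARP8. The value over the reference chromosomes is not one for such intervals, and the intervals of other genes were not compared. TBX2 is on chromosome 17, as is the gained region that holds JMJD6, and copy number was not examined here. Of the 35 interval peaks, 2 for HAND2, 3 for GATA2, 2 for ISL1 and 4 for TBX2 overlapped no listed promoter or enhancer of any gene. The share of all N-Myc peaks outside the listed regions is not given here, so these counts have no background.

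The unlisted peaks included those nearest to TBX2, at 18.1 and 19.3 kb upstream (chr17:59458984-59459313 and chr17:59457777-59458111). Both lay in an intron shared by BCAS3 and a non-coding gene. The peak at 19.3 kb held a canonical E-box. An unlisted peak lay 17.4 kb downstream of GATA2 (chr3:128189053-128189667, 615 bp) with a canonical E-box, and at HAND2 one lay 37.1 kb downstream (chr4:174413987-174414541, 555 bp) without one. Typical enhancers and super-enhancers were defined by acetylation of histone H3 at lysine 27, which was not analysed here, so whether these positions were acetylated was not examined.

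The 22 N-Myc peaks in the regions of the 8 genes ranged from 291 to 932 bp in width, with a median of 418 bp, the same as over all N-Myc peaks. By the midpoint, 9 lay in introns, 7 in intergenic sequence, 4 in non-coding exons, 1 in a coding exon and 1 in an untranslated region. Of the 22, 5 were within 1 kb of a protein-coding start of any gene, or 2 for CLPB and 1 each for PARP8, GATA2 and KLF7, whereas 37.6% of all N-Myc peaks were. The median content of G and C was 41.8%, against 53.2% over all N-Myc peaks. Among peaks more than 1 kb from a start it was 41.1% for the 17 peaks of these genes and 48.0% for all 6352.

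Motifs were counted on both strands over the whole peak. CACGTG was present in 7 of the 22 peaks (31.8%), against 33.4% of all N-Myc peaks, so its share was near the background. The peaks with it were 3 of HAND2, 2 of GATA3, 1 of GATA2 and 1 of TBX2, and each held 1 match. With 1 base on each side, the E-boxes read CCACGTGG at HAND2 (-479 kb), CCACGTGA at HAND2 (7.33 kb) and GATA2, CCACGTGC at GATA3 (278 kb) and TBX2, ACACGTGC at HAND2 (-663 kb) and TCACGTGA at GATA3 (120 kb), each read on one of its strands. Of the 3963 E-boxes in all N-Myc peaks, 19.3%, 11.6%, 18.8%, 10.1% and 3.41% had these forms, in that order. The last was the rarest of the 10 forms.

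Motifs of the families to which the 8 proteins belong were counted in the same way. The HAND-type E-box CATCTG was in 12 of the 22 peaks (54.5%, against 43.3% of all N-Myc peaks), the GATA motif AGATAA in 5 (22.7% against 20.4%), the homeodomain motif TAATTA in 4 (18.2% against 12.8%) and the AP-2 motif GCCNNNGGC in 6 (27.3% against 19.4%). The KLF motif GGGTGTGG and the T-box motif AGGTGTGA were in none, with shares of 4.10% and 1.79% over all N-Myc peaks. None of these strings contains another. Among peaks more than 1 kb from a start, the HAND-type E-box was in 10 of 17 (58.8%, against 53.4%). The GATA, homeodomain and AP-2 motifs were each in 4 of 17 (23.5%), against 24.7%, 17.0% and 15.1%. A match is a string in the reference sequence and not a measured binding site.

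**Figure D4:**
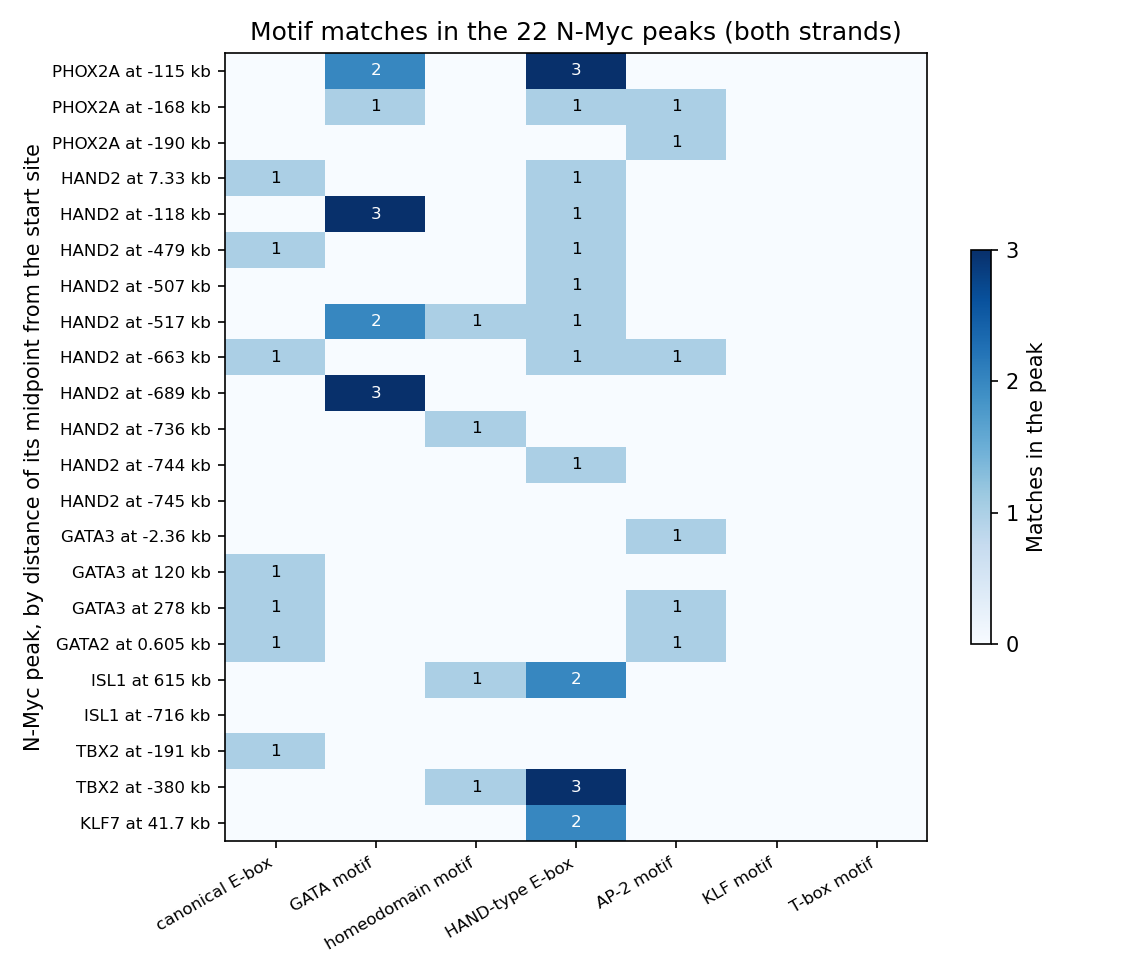
Number of matches to each motif (columns) in each of the 22 N-Myc peaks (rows, by gene and distance of the midpoint from its start site in kb; negative is upstream). The HAND-type E-box occurs in 12 peaks and the canonical E-box in 7, and the KLF and T-box columns are empty.

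The matches were spread unevenly over the peaks. The GATA motif had 3 matches in each of 2 HAND2 peaks, at -118 and -689 kb, and 2 in each of the HAND2 peak at -517 kb and the PHOX2A peak at -115 kb. The 3 GATA3 peaks and the GATA2 peak held none. The HAND-type E-box had 3 matches in the PHOX2A peak at -115 kb and in the TBX2 peak at -380 kb, and 2 in the KLF7 peak and in the ISL1 peak at 615 kb. It was in 7 of the 10 HAND2 peaks, beside 53.4% of all N-Myc peaks more than 1 kb from a start. Matches per peak were not counted over all N-Myc peaks, so the numbers of matches given here have no background. The AP-2 motif was in the GATA3 peaks at -2.36 and 278 kb, the GATA2 peak, 2 PHOX2A peaks and 1 HAND2 peak.

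JMJD6 was listed at none of the 8 genes, in any class, alone or with N-Myc. The JMJD6 lists were short, at 561 peaks, and named 1.22% of protein-coding genes, so a count of 0 among 8 genes is near that background. The nearest JMJD6 peak was 160 kb from PHOX2A and 161 kb from TBX2. The others were 2394 kb from GATA2, 5224 kb from ISL1, 6780 kb from GATA3, 7834 kb from TFAP2B, 8130 kb from HAND2 and 10260 kb from KLF7. The median was 6002 kb, against 2513 kb over all protein-coding genes, of which 5.85% had a JMJD6 peak within 100 kb.

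A JMJD6 peak lay over 1 of the 22, compared with 2.37% of all N-Myc peaks. It was the PHOX2A-assigned peak at the start of CLPB (chr11:72145454-72145830), which had the same 377 bp in the N-Myc list, the JMJD6 list and the list of shared peaks. Only 140 bp of it (37.1%) lay inside the enhancer of 846 bp assigned to PHOX2A. The CLPB promoter was listed for N-Myc, for JMJD6 and for both, whereas that enhancer was listed for N-Myc alone. In the whole series 68 N-Myc typical enhancers overlapped a JMJD6 peak, and 3 of these, this one included, were not in the JMJD6 list. Counting this overlap as JMJD6 binding would list 1 of the 8 genes, PHOX2A.

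A further 14 transcription factors of sympathoadrenal cells or the adrenergic state were looked up in the same way. They were chosen from general knowledge with earlier results of these data known, so their shares are a description and were not tested. N-Myc regions were listed for 12 of the 14 (85.7%), against 35.6% of protein-coding genes. Counting only regions within 100 kb left 9, against 29.2%. Assigning enhancers to the nearest protein-coding start left 11, against 25.7%. The intervals around these 14 genes were not measured, so they were not compared with genes in wide intervals. Promoters were listed for 7, against 17.0%, typical enhancers for 12 (85.7%), against 30.4%, and super-enhancers for 4 (28.6%), against 1.27%. No JMJD6 region was listed for any, and HAND1 and SIX3 had no listed region. The 12 genes had 55 regions, led by the SoxC genes SOX11 (1 promoter and 8 typical enhancers) and SOX4 (1 promoter, 6 typical enhancers and 1 super-enhancer). SATB1, a chromatin organiser, had 3 promoter entries, 3 typical enhancers and 1 super-enhancer. With regions kept only up to 100 kb, SOX11 and SOX4 had 2 regions each and SATB1 had 5. With enhancers given to the nearest protein-coding start, SOX11 and SATB1 had 6 each and SOX4 had 3. EYA1, a transcriptional coactivator, had 1 promoter, 2 typical enhancers and 2 super-enhancers, and DACH1, a corepressor, had 1, 3 and 1. ZNF536 had 1 promoter and 5 typical enhancers, and PBX3, a homeodomain cofactor, had 1 and 2. INSM1, a zinc finger factor of neuroendocrine cells, had 5 typical enhancers and no promoter. HEY1, KLF13 and MEIS2 had 2 typical enhancers each and LMO3 had 1. Promoters were thus listed for 7 of these 14 genes and for 1 of the 8 above, beside the 17.0% of protein-coding genes, and the difference was not tested.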

How the data were processed

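The deposited lists give chromosome, start and end in bp on hg19 (GRCh37), with a gene symbol or assigned genes and distances in the region lists, and no other value. According to the labels and the methods of the study, the authors used BWA for alignment, SAMtools and bedtools for file handling and MACS2 2.1.1.20160309 for peak calling against input, keeping a q-value below 0.05 and presence in all 3 replicates. Enhancers were built with ROSE from a single experiment on acetylated H3K27, with stitching at 12.5 kb, and were assigned to genes with GREAT. Whether the 3 replicates came from separate cultures is not given in the sources used here.

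Genes were matched by exact symbol; of 8279 symbols in the 12 lists, 7627 (92.1%) were in GENCODE 44 lifted to GRCh37. Peaks were assigned to regions by an overlap of at least 1 bp. Start sites were those implied by the listed distances, or by the listed promoter for GATA2 and the annotation for TFAP2B; the implied ISL1 start was 362 bp from an annotated one. Nearest-peak distances used all annotated starts. Python 3.11.15, pysam 0.24.0 and matplotlib 3.10.9 were used, and the overlap, distance and motif functions were tested on simulated data. The 8 genes, the 14 further factors and the motifs were chosen with earlier results of these data known. All 8 genes were named whatever their values, further factors with a listed region were named, and sequences were chosen as those with CACGTG or, failing that, the peak nearest to the start. Alternatives concerned the assignment, antisense genes, overlap, peak width, start sites and motif.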

Additional observations from a re-analysis of the deposited data

How the results depend on the processing

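No paired analysis was possible because the lists merge the replicates and have no column per sample; for the same reason no replicate could be left out, and the depth that limits peak detection is unknown. With regions kept only up to 100 kb, the 8 genes fell from 7 listed to 4 and from 17 N-Myc regions to 4, and the 14 further factors from 55 regions to 24 and from 4 genes with a super-enhancer to 2. With enhancers given to the nearest protein-coding start, the 8 genes had 8 regions. Counting antisense genes raised the genes with an N-Myc promoter from 1 to 2, through GATA3-AS1. Counting a JMJD6 peak over an N-Myc region, an alternative chosen after seeing the data, raised the genes with JMJD6 from 0 to 1.

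Keeping peaks wider than the list median, in place of a score, left 11 of the 22 peaks, 6 of the 11 peaks in super-enhancers and 0 overlapping JMJD6; requiring the peak midpoint inside the region also left 0. The median distance to an N-Myc peak rose from 11.7 to 33.6 kb from the 5′ end of the gene record (58.8 kb over all genes) and to 24.1 kb for wider peaks (115 kb). Allowing CACGCG or CATGTG raised the peaks with an E-box from 7 to 16 (72.9% over all N-Myc peaks). The other 24 alternative values were within 1.5 times or the same. These shifts follow from the regions, peaks or motifs that each rule admits.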
